A study of Rattus norvegicus with 18 samples.

Results

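AP-1 is a family of paired transcription factors built from Jun proteins, Fos proteins and related factors such as Atf3, and the Egr factors are zinc finger proteins that bind GC-rich sites. Both families were measured here by RNA-seq as 10 genes: the Jun genes Jun, Junb and Jund, the Fos genes Fos, Fosb, Fosl1 and Fosl2, Atf3, and the Egr genes Egr1 and Egr2. They were picked by gene symbol from a table of 17303 rows, with earlier results of these data known. Of these 10 genes, 9 were among the 10478 rows tested, which had at least 1 FPKM (fragments per kilobase of transcript, scaled to the library's total) in at least 3 libraries. Fosb passed 1 FPKM in 1 library and was not tested.

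The cells were ventricular myocytes of Wistar rats at postnatal day 3, held for 48 h in AraC, which blocks DNA synthesis in dividing cells, and then starved of serum for 24 h. Treatment then lasted 48 h, with phenylephrine (PE), an agonist of the alpha-1 adrenergic receptor that makes cultured cardiomyocytes grow, with Senexin A, an inhibitor of the Mediator kinases Cdk8 and Cdk19, with both, or with vehicle. The 6 groups had 3 libraries each: 10 µM PE with 50 µM Senexin A (PE+S50), 10 µM PE with 10 µM Senexin A (PE+S10), 50 µM Senexin A alone (S50), 10 µM Senexin A alone (S10), 10 µM PE alone (PE), and Vehicle. All groups shared the strain, the AraC and the serum starvation, and no genetic change was made in any of them. The labels do not say whether the libraries came from separate cultures or litters, and the p-values reflect only the spread among these libraries, part of which may be technical.

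Some members, such as Fos, Jun and Egr1, are classic immediate early genes. They are switched on within minutes when kinase cascades such as ERK reach factors at their promoters, among them serum response factor and its partners. Jun proteins can pair with each other, whereas Fos proteins need a Jun partner, and Atf3 pairs with Jun proteins and is also a target of the integrated stress response. In heart muscle cells a short burst of Fos, Jun and Egr1 is a known early mark of hypertrophic stimulation. The 48 h treatment used here is far later than that burst, so the values describe levels in cells held under the agents.

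The authors' table places the Jun genes, in build rn5, with Jun at chr5:117957729-117960823, Junb at chr19:37068594-37070379 and Jund at chr16:20342095-20343775. It places Fos at chr6:116249741-116252608, Fosb at chr1:81481173-81487900, Fosl1 at chr1:227755886-227764393 and Fosl2 at chr6:35422540-35440258. The others lie with Atf3 at chr13:114411692-114443432, Egr1 at chr18:27369517-27371716 and Egr2 at chr20:24551934-24556227. No other row of the table overlaps these loci.

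The promoters are shown for the 3 genes among these 10 in which a searched motif was found. RefSeq windows (build GRCr8) were at hand for 7 of the 10 genes, Fosb, Fosl1, Fosl2, Junb, Jund, Egr1 and Egr2, and not for Fos, Jun and Atf3. Both strands of the window from 250 bases before to 50 bases after each gene's start were searched for the AP-1 motif TGANTCA, the cyclic AMP response element TGACGTCA, the Egr motif GCGTGGGCG and the CArG box, the site of serum response factor. The letters of the first pair of motifs differ in length, so 1 match cannot be both. All matches fell in the 250 bases before the start, which are printed 5′ to 3′ on the strand of the gene, with the matches in capitals. Egr1 lies at chr18:26736828-26737077 (plus strand), Egr2 at chr20:21054442-21054691 (minus strand) and Jund at chr16:18769772-18770021 (minus strand).
Egr1: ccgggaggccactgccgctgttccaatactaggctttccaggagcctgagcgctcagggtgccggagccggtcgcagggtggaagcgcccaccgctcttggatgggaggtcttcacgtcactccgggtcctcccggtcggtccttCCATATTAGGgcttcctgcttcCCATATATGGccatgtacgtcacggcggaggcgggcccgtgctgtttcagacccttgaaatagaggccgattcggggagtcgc
Egr2: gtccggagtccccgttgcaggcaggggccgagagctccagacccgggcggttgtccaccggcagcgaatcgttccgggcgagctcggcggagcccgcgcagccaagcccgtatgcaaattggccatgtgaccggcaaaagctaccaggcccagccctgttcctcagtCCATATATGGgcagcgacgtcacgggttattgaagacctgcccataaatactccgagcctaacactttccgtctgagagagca
Jund: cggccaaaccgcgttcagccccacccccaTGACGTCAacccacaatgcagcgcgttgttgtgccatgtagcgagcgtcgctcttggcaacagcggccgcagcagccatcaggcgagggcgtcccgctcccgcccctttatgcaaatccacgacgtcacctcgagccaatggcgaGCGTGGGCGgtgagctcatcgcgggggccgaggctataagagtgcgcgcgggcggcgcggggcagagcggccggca
The capitals in Egr1 are a pair of CArG boxes, at bases -105 to -96 and -83 to -74 from the start, and those in Egr2 are a single CArG box at bases -83 to -74. The capitals in Jund are a cyclic AMP response element at bases -221 to -214 and an Egr motif at bases -76 to -68. Among 27457 rat promoters of the same length, 1.64% held a CArG box, 1.91% the cyclic AMP response element, 0.59% the Egr motif and 7.33% the AP-1 motif. No motif searched matched in the windows of Fosb, Fosl1, Fosl2 and Junb. A match is a string of letters and was not tested as a binding site.

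Jund had the highest level of the 10 genes in every group, and Fosb the lowest or next to lowest. By median FPKM over the 18 libraries the order was Jund (79.3), Jun (30.2), Junb (17.1), Fosl2 (13.8), Atf3 (13.1), Fos (5.11), Egr1 (4.89), Fosl1 (1.53), Egr2 (1.12) and Fosb (0.444). FPKM is scaled by transcript length, so these levels can be set side by side. The ranges of Junb, Fosl2 and Atf3 over the libraries overlapped, as did those of Fos and Egr1. Egr1 spread most, with a highest value 35.6 times its lowest (29.9 against 0.841 FPKM), and Junb least, at 2.66 times.

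**Figure D1:**
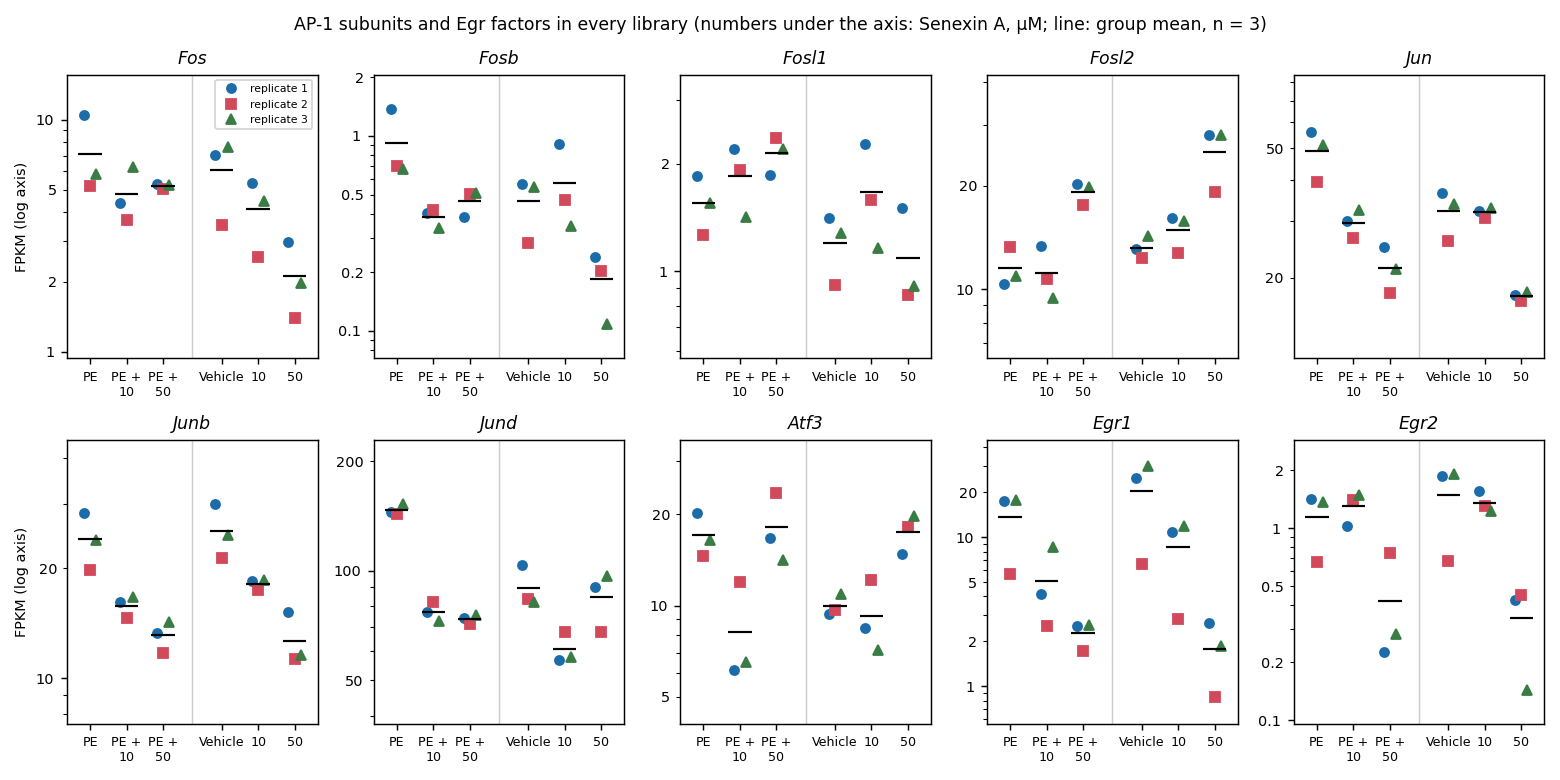
FPKM (log axis) of the 10 genes in each of the 18 libraries, with the PE groups left of the groups without PE and Senexin A doses from low to high; symbols give the replicate number and lines the group mean (n = 3). Jund with PE alone sits at 143 to 152 FPKM, above all other groups, and Egr1 falls to 2.59 FPKM or less at 50 µM with PE and to 2.66 FPKM or less at 50 µM without it.

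Markers of the labelled cell type were high. All 8 cardiomyocyte markers, among them Tnnt2, Myh6 and Actn2, were tested, and their summed level was 33200 to 99800 FPKM. Endothelial markers summed to 0.967 to 6.79 FPKM, with Cdh5, Kdr and Vwf under 1 FPKM in every library, and macrophage markers to 5.32 to 40.5 FPKM, with Adgre1 under 1 FPKM in every library. Fibroblast markers summed to 612 to 3190 FPKM with Col1a2 under 1 FPKM throughout, and smooth muscle markers to 1780 to 6090 FPKM. In bulk samples fewer cells of a type and less RNA per cell cannot be told apart.

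Jun and Jund rose with PE alone and fell at both Senexin A doses given with PE, while Junb fell at both doses and did not differ detectably with PE. Jun, the founding AP-1 subunit, had 56.1, 39.4 and 51.2 FPKM in the PE libraries (replicates 1 to 3, in this order throughout), 29.8, 26.6 and 32.3 FPKM in PE+S10, and 25, 18 and 21.3 FPKM in PE+S50. The groups without PE had 36.3, 25.9 and 33.8 FPKM in Vehicle, 32.1, 30.6 and 32.9 FPKM in S10, and 17.8, 17.0 and 18.1 FPKM in S50. The PE libraries lay above all others, and both 50 µM groups lay below all libraries of the other 4 groups.

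Each difference is given on the log2(FPKM + 1) scale as first group minus second, with its standard error, from a limma fit over all tested rows. Jun was 0.59 ± 0.14 higher in PE than in Vehicle (adjusted p = 0.0042), and the same-numbered libraries differed by 0.61, 0.58 and 0.59. It fell by 0.70 in PE+S10 against PE (SE 0.14, adjusted p = 0.0031) and by 1.15 in PE+S50 against PE (SE 0.14, adjusted p = 3.6e-06). Without PE, Jun was lower in S50 than in Vehicle by a log2 difference of -0.81 ± 0.14 (adjusted p = 9.8e-05), and S10 and Vehicle differed by 0.01 ± 0.14 (95% interval -0.29 to 0.30, adjusted p = 0.98). The doses differed both without PE (S50 against S10, -0.82 ± 0.14, adjusted p = 0.00015) and with PE (PE+S50 against PE+S10, -0.46 ± 0.14, adjusted p = 0.015). The dose call with PE was lost without PE+S50 replicate 2 (-0.34, adjusted p = 0.08) and without PE+S10 replicate 3 (-0.39, adjusted p = 0.0627).

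Whether the effect of 10 µM on Jun differed with and without PE depended on the replicate block, a term for the replicate number: the interaction was -0.70 ± 0.20 with an adjusted p of 0.17 without the block and 0.0085 with it. At 50 µM the interaction for Jun was -0.34 ± 0.20 (adjusted p = 0.33). In PE+S50 against S50, Jun differed by 0.26 ± 0.14 (adjusted p = 0.25, and 0.045 with the replicate block).

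Jund, the Jun protein found at steady levels in many resting cells, had 145, 143 and 152 FPKM in PE, 76.8, 81.9 and 72.8 FPKM in PE+S10, and 74.2, 71.4 and 75.3 FPKM in PE+S50. Its levels without PE were 104, 83.4 and 81.8 FPKM in Vehicle, 57.0, 67.7 and 57.9 FPKM in S10, and 90.1, 68.0 and 96.4 FPKM in S50. The 3 PE libraries stood apart at the top, the PE+S10 and PE+S50 libraries were close to each other, and the S10 libraries lay at the bottom.

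Jund was 0.71 ± 0.11 higher in PE than in Vehicle (adjusted p = 0.00025). It was lower than in PE in PE+S10 (-0.92 ± 0.11, adjusted p = 0.00011) and in PE+S50 (-0.99 ± 0.11, adjusted p = 2.5e-06). The PE+S50 and PE+S10 groups differed by -0.07 ± 0.11 (95% interval -0.31 to 0.18, adjusted p = 0.68). Without PE the order by dose was not monotonic: Jund was lower in S10 than in Vehicle (-0.55 ± 0.11, adjusted p = 0.0043), higher in S50 than in S10 (0.46 ± 0.11, adjusted p = 0.0032), and S50 and Vehicle differed by -0.09 ± 0.11 (95% interval -0.33 to 0.16, adjusted p = 0.53). Under quantile normalization S50 against Vehicle gave -0.28 (adjusted p = 0.053), and PE against Vehicle gave 0.54 (adjusted p = 0.0033). In replicate 2 the S50 and S10 libraries were level, a difference of 0.00, against 0.65 and 0.73 in replicates 1 and 3.

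The effect of 50 µM on Jund differed with and without PE, an interaction of -0.90 ± 0.16 (adjusted p = 0.0039) that passed the test under every alternative run. At 10 µM the interaction was -0.37 ± 0.16 (adjusted p = 0.45). Jund was also 0.34 ± 0.11 higher in PE+S10 than in S10 (adjusted p = 0.032). It no longer passed without the filter on low values (adjusted p = 0.0702), under quantile normalization (0.20, adjusted p = 0.22) and without PE+S10 replicate 1 or 2 or S10 replicate 1 or 3 (adjusted p = 0.0691 to 0.105). For PE+S50 against S50 it differed by -0.19 ± 0.11 (adjusted p = 0.32), and by -0.34 without S50 replicate 2 (adjusted p = 0.0372).

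Junb, a Jun protein known in many cells to restrain Jun, had 28.4, 19.8 and 23.9 FPKM in PE, 16.1, 14.7 and 16.7 FPKM in PE+S10, and 13.3, 11.8 and 14.3 FPKM in PE+S50. Without PE it had 30.0, 21.4 and 24.7 FPKM in Vehicle, 18.5, 17.5 and 18.5 FPKM in S10, and 15.2, 11.3 and 11.6 FPKM in S50. The PE and Vehicle libraries overlapped, and every library that received Senexin A lay below all of them.

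Junb differed by -0.08 ± 0.14 between PE and Vehicle (95% interval -0.37 to 0.21, adjusted p = 0.70). It was lower in PE+S50 than in PE (-0.82 ± 0.14, adjusted p = 0.0001), in S50 than in Vehicle (-0.94 ± 0.14, adjusted p = 2.1e-05) and in S50 than in S10 (-0.50 ± 0.14, adjusted p = 0.0067). At 10 µM it was lower in PE+S10 than in PE (-0.56 ± 0.14, adjusted p = 0.011), although not once PE replicate 1 was omitted (-0.44, adjusted p = 0.0502). It was also lower in S10 than in Vehicle (-0.45 ± 0.14, adjusted p = 0.036). That comparison of S10 with Vehicle missed the threshold in unfiltered rows (adjusted p = 0.0789), without replicate 2 of every group (adjusted p = 0.0573), and when any S10 library or Vehicle replicate 1 or 3 was left out (adjusted p = 0.0643 to 0.154). The PE+S50 and PE+S10 groups differed by -0.26 ± 0.14 (adjusted p = 0.15, and 0.031 with the replicate block).

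Summed over the 3 genes, the Jun family averaged 220 ± 14.9 FPKM in PE, 123 ± 0.734 FPKM in PE+S10 and 108 ± 6.14 FPKM in PE+S50 (SD, n = 3 each). Without PE the sums were 147 ± 20.5 FPKM in Vehicle, 111 ± 4.35 FPKM in S10 and 115 ± 16.4 FPKM in S50. The mean sum was lower at both doses, and its makeup was not the same at each: Jund made up 61.0 ± 2.74% of it in Vehicle, 54.8 ± 3.18% in S10 and 73.4 ± 2.93% in S50. These sums and shares were not tested. With PE the Jund share was 67.0 ± 3.83% in PE alone, 62.9 ± 3.38% in PE+S10 and 68.2 ± 2.30% in PE+S50, with overlapping libraries.

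**Figure D2:**
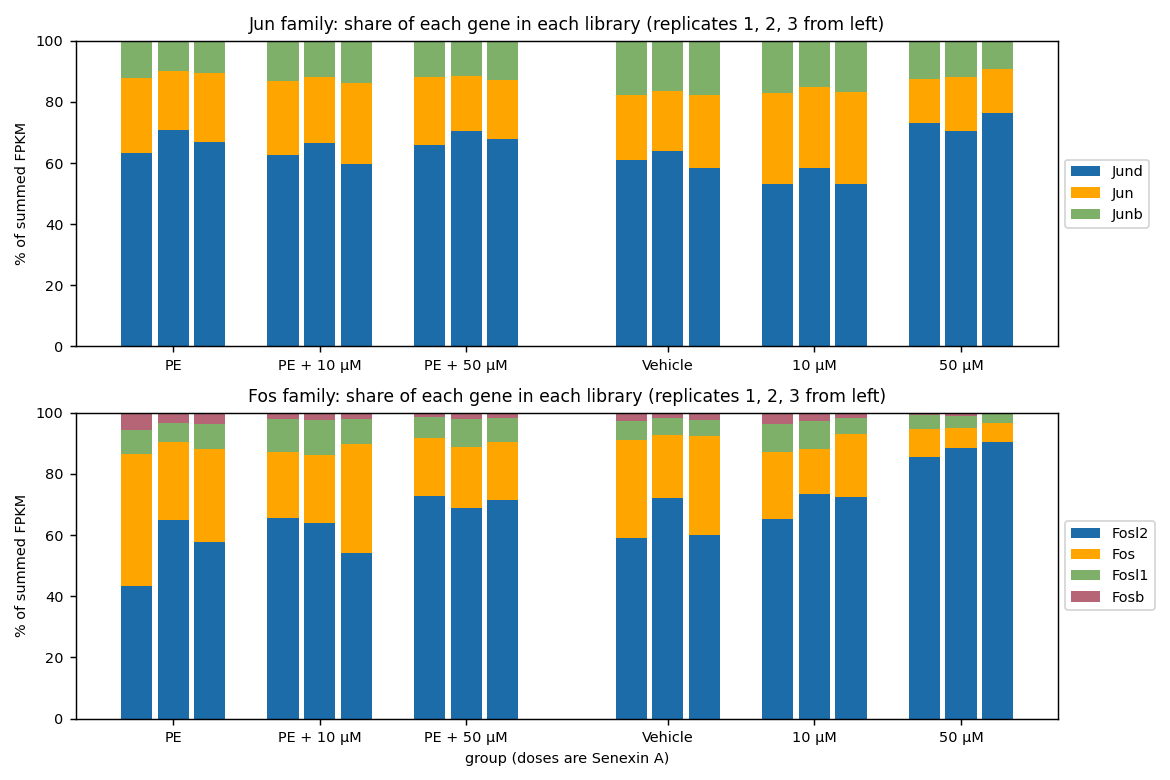
Share of each gene in the summed FPKM of the Jun family (top) and the Fos family (bottom), 1 bar per library, with the PE groups left of those without PE and doses from low to high. Jund makes up 70.6 to 76.5% of the Jun family in S50 against 53.0 to 58.5% in S10, and Fosl2 makes up 85.6 to 90.4% of the Fos family in S50 against 59.1 to 72.3% in Vehicle.

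Among the Fos genes, Fosl2 rose at 50 µM Senexin A with or without PE, and Fos fell at 50 µM alone. Fosl2 (also called Fra-2), a Fos protein that lacks the strong activation domain of Fos, had 10.4, 13.3 and 10.9 FPKM in PE, 13.4, 10.7 and 9.44 FPKM in PE+S10, and 20.2, 17.5 and 19.9 FPKM in PE+S50. The groups without PE had 13.1, 12.3 and 14.3 FPKM in Vehicle, 16.1, 12.8 and 15.8 FPKM in S10, and 28.1, 19.1 and 28.1 FPKM in S50. All 6 libraries with 50 µM lay above all 12 others.

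Fosl2 was higher in PE+S50 than in PE (0.69 ± 0.15, adjusted p = 0.00083) and in S50 than in Vehicle (0.86 ± 0.15, adjusted p = 0.00011). The doses differed with PE (PE+S50 against PE+S10, 0.74 ± 0.15, adjusted p = 0.00081) and without it (S50 against S10, 0.70 ± 0.15, adjusted p = 0.00092). At 10 µM it differed by -0.05 ± 0.15 with PE (95% interval -0.36 to 0.27, adjusted p = 0.86) and by 0.15 ± 0.15 without it (95% interval -0.16 to 0.47, adjusted p = 0.52). PE+S10 against S10 gave -0.39 ± 0.15 with an adjusted p of 0.054, which was 0.029 with the replicate block. That comparison also passed with a filter of 5 FPKM (adjusted p = 0.0485), with median-ratio scaling (0.0499), without PE+S10 replicate 1 (0.0243) or S10 replicate 2 (0.0352), and without replicate 2 of every group (0.0393). The omission of replicate 2 of every group was chosen after seeing the data. PE+S50 against S50 gave -0.35 ± 0.15 (adjusted p = 0.13), and -0.53 without S50 replicate 2 (adjusted p = 0.0194).

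Fos had 10.4, 5.18 and 5.82 FPKM in PE, 4.36, 3.70 and 6.25 FPKM in PE+S10, and 5.28, 5.04 and 5.25 FPKM in PE+S50. Its levels without PE were 7.07, 3.51 and 7.63 FPKM in Vehicle, 5.35, 2.55 and 4.48 FPKM in S10, and 2.96, 1.41 and 1.97 FPKM in S50. The S50 libraries lay below those of Vehicle and of PE+S50, and the 3 groups with PE overlapped.

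Fos was lower in S50 than in Vehicle (-1.16 ± 0.29, adjusted p = 0.0023). With PE, PE+S50 and PE differed by -0.34 ± 0.29 (95% interval -0.95 to 0.26, adjusted p = 0.32). It was 1.02 ± 0.29 higher in PE+S50 than in S50 (adjusted p = 0.025). That call was lost with no filter (adjusted p = 0.0714), without replicate 2 of every group (0.0649), and without any PE+S50 library or S50 replicate 2 or 3 (0.0559 to 0.0914). The interaction at 50 µM was 0.82 ± 0.40 (adjusted p = 0.25, and 0.049 with the replicate block). Fos was also lower in S50 than in S10 (-0.71 ± 0.29, adjusted p = 0.049). It did not pass in the fit of unfiltered rows (0.116), under quantile normalization (-0.46, adjusted p = 0.20), with the compared groups only (0.055) and without S50 replicate 2 or 3 or S10 replicate 1 or 3 (0.102 to 0.178). In PE against Vehicle, Fos differed by 0.21 ± 0.29 (95% interval -0.40 to 0.81, adjusted p = 0.62), up in replicates 1 and 2 (0.50 and 0.45) and down in replicate 3 (-0.34).

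Fosl1 (Fra-1), a Fos protein known as an ERK-driven AP-1 subunit, had 1.84, 1.27 and 1.55 FPKM in PE, 2.19, 1.92 and 1.42 FPKM in PE+S10, and 1.86, 2.36 and 2.20 FPKM in PE+S50. Without PE it had 1.40, 0.913 and 1.28 FPKM in Vehicle, 2.27, 1.58 and 1.16 FPKM in S10, and 1.51, 0.857 and 0.912 FPKM in S50. The PE+S50 libraries lay above those of S50 and of PE. Fosl1 was 0.60 ± 0.17 higher in PE+S50 than in S50 (adjusted p = 0.029). That call was lost with the compared groups only (adjusted p = 0.0712), without replicate 2 of every group (0.47, adjusted p = 0.279), and without replicate 2 or 3 of either group (0.0714 to 0.0951). PE+S50 and PE differed by 0.30 ± 0.17 (adjusted p = 0.15, and 0.43 with an adjusted p of 0.04 under quantile normalization). S50 and S10 differed by -0.34 ± 0.17 (adjusted p = 0.11), which passed without S50 replicate 1 (-0.48, adjusted p = 0.0392) or S10 replicate 3 (-0.49, adjusted p = 0.04).

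Fosb, whose short splice form accumulates under lasting stimulation in neurons, had 1.38, 0.699 and 0.673 FPKM in PE, 0.404, 0.417 and 0.337 FPKM in PE+S10, and 0.385, 0.501 and 0.512 FPKM in PE+S50. The groups without PE had 0.570, 0.282 and 0.548 FPKM in Vehicle, 0.907, 0.470 and 0.346 FPKM in S10, and 0.241, 0.204 and 0.109 FPKM in S50. The PE libraries lay above those of Vehicle and of both groups with PE and Senexin A, and the S50 libraries below those of every other group. In the fit with no filter none of its comparisons passed, with adjusted p from 0.052 (S50 against S10, -0.40 ± 0.14) upward.

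The summed Fos family was 21.1 ± 2.60 FPKM in PE, 18.2 ± 1.89 FPKM in PE+S10 and 27.0 ± 1.33 FPKM in PE+S50 (SD, n = 3 each). Without PE it was 21.0 ± 3.50 FPKM in Vehicle, 21.3 ± 3.64 FPKM in S10 and 28.5 ± 6.03 FPKM in S50. Fosl2 was the largest part in every library but PE replicate 1, where Fos made up 43.4% and Fosl2 43.2%, and its share was 88.2 ± 2.39% in S50 against 63.9 ± 7.36% in Vehicle. The Fos share was 7.30 ± 1.51% in S50 against 28.3 ± 6.60% in Vehicle, and 19.2 ± 0.477% in PE+S50 against 33.2 ± 9.28% in PE.

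Atf3, a stress-induced factor of the same basic leucine zipper class, rose with PE and with 50 µM Senexin A alone and fell at 10 µM given with PE. It had 20.2, 14.5 and 16.4 FPKM in PE, 6.12, 11.9 and 6.52 FPKM in PE+S10, and 16.7, 23.4 and 14.1 FPKM in PE+S50. Its levels without PE were 9.40, 9.70 and 10.9 FPKM in Vehicle, 8.40, 12.2 and 7.14 FPKM in S10, and 14.7, 18.1 and 19.7 FPKM in S50. The PE, PE+S50 and S50 libraries all lay above those of Vehicle, PE+S10 and S10. Replicate 2 was the highest library in PE+S10, PE+S50 and S10.

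Atf3 was 0.70 ± 0.23 higher in PE than in Vehicle (adjusted p = 0.027). That call was lost with no filter (adjusted p = 0.0733) and without PE replicate 1 (0.58, adjusted p = 0.112), PE replicate 3 (0.0518), Vehicle replicate 1 (0.073) or Vehicle replicate 2 (0.0686). Atf3 was lower in PE+S10 than in PE (-1.02 ± 0.23, adjusted p = 0.0063), while PE+S50 and PE differed by 0.06 ± 0.23 (95% interval -0.42 to 0.54, adjusted p = 0.83). It was higher in PE+S50 than in PE+S10 (1.08 ± 0.23, adjusted p = 0.0012), in S50 than in Vehicle (0.74 ± 0.23, adjusted p = 0.0098) and in S50 than in S10 (0.87 ± 0.23, adjusted p = 0.0044). S10 and Vehicle differed by -0.13 ± 0.23 (adjusted p = 0.75). The interactions did not pass, at -0.89 ± 0.32 for 10 µM (adjusted p = 0.33) and -0.68 ± 0.32 for 50 µM (adjusted p = 0.23).

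Atf3 is a target of the integrated stress response, the program in which Atf4 is translated when initiation slows. Of the genes listed for that program, Atf4 and Ddit3 among them, 10 of 10 were higher in PE+S50 than in PE (median 1.91, beside 29.3% of all rows). Atf3 differed there by 0.06 ± 0.23 (adjusted p = 0.83). In S50 against Vehicle, 10 of 10 were higher (median 2.04, beside 30.5% of all rows), and Atf3 was higher too. Ddit3 averaged 292 FPKM in PE+S50 and 55.0 FPKM in PE (2.39 ± 0.17, adjusted p = 2.5e-08), and Asns, an enzyme of asparagine synthesis, 234 and 30.0 FPKM (2.95 ± 0.23, adjusted p = 4.3e-08). At 10 µM the list did not move as a whole: with PE, Asns was higher (0.92 ± 0.23, adjusted p = 0.011) and Ppp1r15a lower (-0.44 ± 0.14, adjusted p = 0.041), and without PE 1 of 10 was higher. With PE alone 2 were higher and 1 lower (all rows, 17.9% and 12.7%). The part of this program in the Atf3 levels was not tested.

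Egr1 and Egr2 fell at 50 µM Senexin A, with PE and without it. Egr1, the founding Egr factor, had 17.5, 5.65 and 17.6 FPKM in PE, 4.13, 2.54 and 8.56 FPKM in PE+S10, and 2.53, 1.72 and 2.59 FPKM in PE+S50. Without PE it had 24.9, 6.60 and 29.9 FPKM in Vehicle, 10.9, 2.84 and 11.9 FPKM in S10, and 2.66, 0.841 and 1.86 FPKM in S50. Both 50 µM groups lay below PE and below Vehicle, and replicate 2 was the lowest library in all 6 groups.

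Egr1 was lower in S50 than in Vehicle (-2.77 ± 0.56, adjusted p = 0.00048) and in PE+S50 than in PE (-2.02 ± 0.56, adjusted p = 0.0061). At 10 µM the same-numbered libraries fell by 1.12, 0.99 and 1.26 in S10 against Vehicle, and by 1.85, 0.91 and 0.96 in PE+S10 against PE. Those differences, -1.12 ± 0.56 and -1.24 ± 0.56, did not pass without the replicate block (adjusted p = 0.19 and 0.15) and passed with it (0.0062 and 0.0031). They also passed without replicate 2 of every group (-1.19, adjusted p = 0.0237, and -1.41, adjusted p = 0.0148), and the first passed without Vehicle replicate 2 (-1.75, adjusted p = 0.0485). Omitting replicate 2 of every group was chosen after seeing the data, and replicate 2 was the lowest Egr1 library in all 6 groups. A pass under that omission, here or below, is therefore not separate evidence. Egr1 was lower in S50 than in S10 (-1.65 ± 0.56, adjusted p = 0.023). This difference missed the threshold in unfiltered rows (0.0681) and without S50 replicate 2, S10 replicate 1 or S10 replicate 3 (0.0839 to 0.0966). PE+S50 and PE+S10 differed by -0.78 ± 0.56 (adjusted p = 0.29), which passed with the replicate block (0.024) and without replicate 2 of every group (-0.98, adjusted p = 0.0161). In PE against Vehicle, Egr1 differed by -0.47 ± 0.56 (95% interval -1.66 to 0.72, adjusted p = 0.56), an interval that spans both directions. PE+S10 against S10 gave -0.59 ± 0.56 (adjusted p = 0.44), which passed without replicate 2 of every group (-0.83, adjusted p = 0.0441).

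Egr2 (Krox20), a related Egr factor best known from nerve myelination, had 1.42, 0.666 and 1.37 FPKM in PE, 1.02, 1.41 and 1.49 FPKM in PE+S10, and 0.225, 0.739 and 0.283 FPKM in PE+S50. The groups without PE had 1.86, 0.672 and 1.92 FPKM in Vehicle, 1.56, 1.30 and 1.22 FPKM in S10, and 0.425, 0.450 and 0.144 FPKM in S50. The S50 libraries lay below those of Vehicle and S10, and PE+S50 overlapped PE through replicate 2 of each.

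Egr2 was lower in S50 than in Vehicle (-0.86 ± 0.22, adjusted p = 0.0028) and than in S10 (-0.82 ± 0.22, adjusted p = 0.005). It was lower in PE+S50 than in PE (-0.60 ± 0.22, adjusted p = 0.027), a call lost under quantile normalization (0.0599) and without replicate 1 or 3 of either group (0.078 to 0.0962). It was lower in PE+S50 than in PE+S10 (-0.72 ± 0.22, adjusted p = 0.014), a call lost without PE+S50 replicate 1 (0.0595) or PE+S10 replicate 3 (0.0514). At 10 µM Egr2 differed by 0.12 ± 0.22 with PE (95% interval -0.34 to 0.58) and by -0.03 ± 0.22 without it (95% interval -0.49 to 0.43). At levels near 1 FPKM the added 1 shrinks a fold change, so its log2 differences understate the ratios of FPKM.

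**Figure D3:**
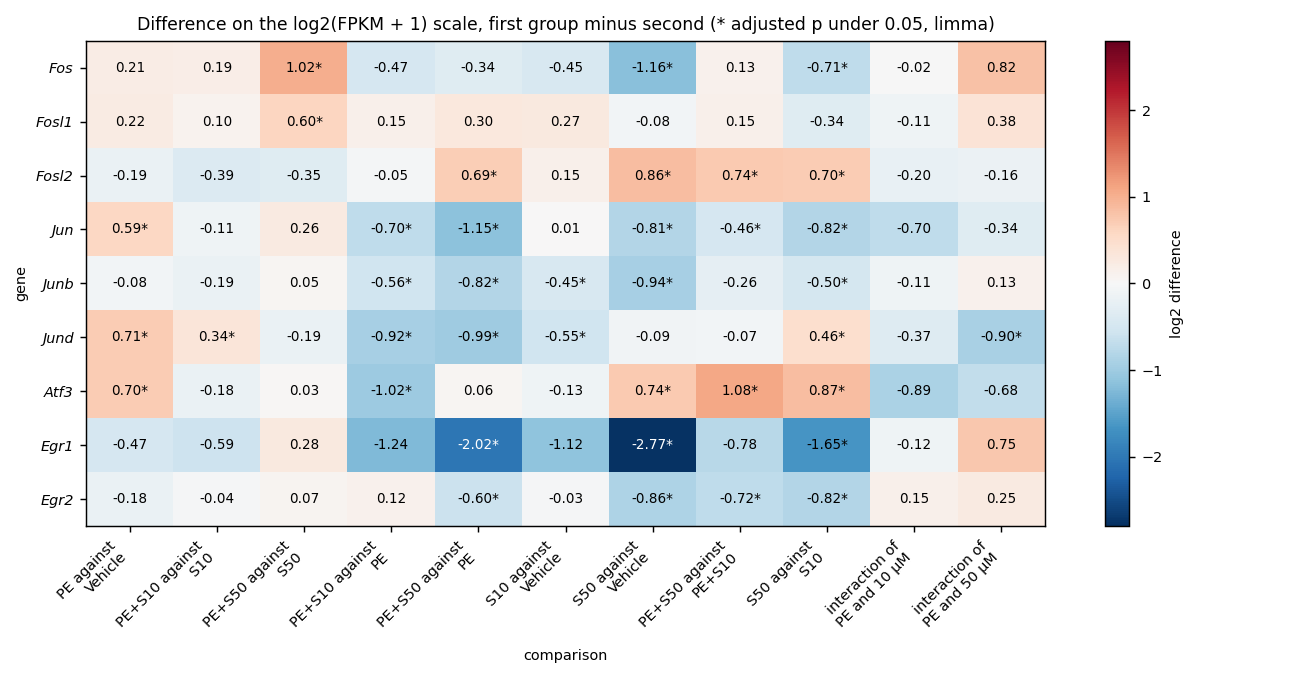
Log2 differences on the log2(FPKM + 1) scale for the 9 tested genes (rows) in the 9 group comparisons and the 2 interactions (columns), first group minus second, with an asterisk where the adjusted p of limma is under 0.05. The 50 µM columns hold most of the calls, Fosl2 and Atf3 being the genes higher in S50 than in Vehicle, and Jund at -0.90 is the only gene called for an interaction. Over all 10478 rows tested, calls were also more frequent at 50 µM, with 6361 in S50 and 1696 in S10 against Vehicle. With PE there were 5939 in PE+S50 and 1778 in PE+S10 against PE.

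Counted over the 9 tested genes, PE raised 3 and lowered 0 relative to Vehicle, where 17.9% of all rows tested were called higher and 12.7% lower. In PE+S10 against PE, 0 were higher and 4 lower (all rows, 9.13% and 7.84%), and in PE+S50 against PE, 1 was higher and 5 lower (29.3% and 27.4%). In S10 against Vehicle, 0 were higher and 2 lower (9.17% and 7.01%), and in S50 against Vehicle, 2 were higher and 5 lower (30.5% and 30.2%). The genes lower at 50 µM thus stood at 5 of 9 in each background, beside fewer than 1 in 3 of all rows, and no test was made of that share. The median difference over the 9 genes was -0.60 in PE+S50 against PE and -0.81 in S50 against Vehicle, beside 0.00 and -0.01 over all rows.

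The remaining comparisons set PE against no PE at each dose, and the doses against each other. In PE+S10 against S10, 1 gene was higher and 0 lower (all rows, 18.9% and 13.6%), and in PE+S50 against S50, 2 were higher and 0 lower (9.31% and 5.01%). In PE+S50 against PE+S10, 2 were higher and 2 lower (21.3% and 19.9%), and in S50 against S10, 3 were higher and 5 lower (25.4% and 24.9%). For the interaction at 10 µM, 0 were called in either direction (all rows, 0.0668% and 0.239%), and for that at 50 µM, 0 were higher and 1 lower (2.24% and 4.76%). Quantile normalization moved the split of all calls by over 10 percentage points in 2 comparisons: the higher share was 58.5% of calls for PE against Vehicle and 47.7% under quantile normalization, and 65% for PE+S50 against S50 and 52.5% under quantile normalization. Smaller moves under it turned the majority in S10 against Vehicle (47.4% against 56.7%) and PE+S10 against PE (49.3% against 53.8%), and gave 50.5% against 58.1% in PE+S10 against S10 and 41.0% against 32% for the interaction at 50 µM. Comparisons that use the same PE or Vehicle libraries are not independent of each other.

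Summed levels of cell type markers also differed between some of the compared groups. Smooth muscle markers summed to 1800 to 1960 FPKM in PE+S50 and 3790 to 5700 FPKM in PE, and to 1780 to 2790 FPKM in S50 and 4500 to 6090 FPKM in Vehicle, and 3 of their 5 genes were called lower in each comparison. Fibroblast sums were 612 to 1210 FPKM in PE+S50 and 1170 to 1940 FPKM in PE, and 963 to 1320 FPKM in S50 and 1760 to 3050 FPKM in Vehicle. Of the 7 fibroblast genes tested, 2 were called lower in each comparison, near the share of all rows (27.4% with PE and 30.2% without). Their median log2 difference was 0.05 with PE and -0.14 without it, so the fibroblast list as a whole did not follow its sum. Cardiomyocyte markers summed to 81900 to 99800 FPKM in PE and 33200 to 47700 FPKM in Vehicle, with 5 of 8 genes called higher and 1 lower. Their sum was below PE at 61700 to 81400 FPKM in PE+S10 and 42700 to 54400 FPKM in PE+S50. Gene by gene, 3 of 8 were called higher and 0 lower in PE+S10 against PE (median 0.20), the opposite direction to the sum. In PE+S50 against PE, 2 were higher and 3 lower (median -0.26). The median was 0.62 both in PE and in S10 against Vehicle, with 5 higher and 0 lower in S10. A sum is weighted to the most abundant genes. Beside the counts of each list, 17.9% of all rows were called higher and 12.7% lower in PE against Vehicle. Those shares were 9.17% and 7.01% in S10 against Vehicle, and 30.5% and 30.2% in S50 against Vehicle. With PE they were 9.13% and 7.84% in PE+S10 against PE, and 29.3% and 27.4% in PE+S50 against PE. No marker list was tested against them. Endothelial sums were 1.59 to 3.13 FPKM in PE+S50 and 4.90 to 6.79 FPKM in PE, with 2 of 3 tested genes lower. The part of these shifts in the values of the AP-1 and Egr genes was not tested.

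Replicate 2 was the lowest of the 3 libraries in 6 of 6 groups for Egr1, Fos, Jun and Junb. Its endothelial marker sum was the highest in 6 of 6 groups, its cardiomyocyte and macrophage sums the highest in 5 of 6, and its smooth muscle sum the lowest in 5 of 6. Their part in the low values was not tested. After the group means were taken off, Egr1 correlated with Fos at 0.89, Jun at 0.78 and Junb at 0.71 over the 18 libraries (Pearson, a description, since same-numbered libraries also share other deviations). Positive values follow in part from picking these genes by their low replicate 2. Egr2, whose replicate 2 was lowest in 2 groups, correlated with Egr1 and with Fos at 0.57 each. Jund, whose replicate 2 was lowest in 3 groups, gave 0.03 to Egr1 and 0.04 to Fos.

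**Figure D4:**
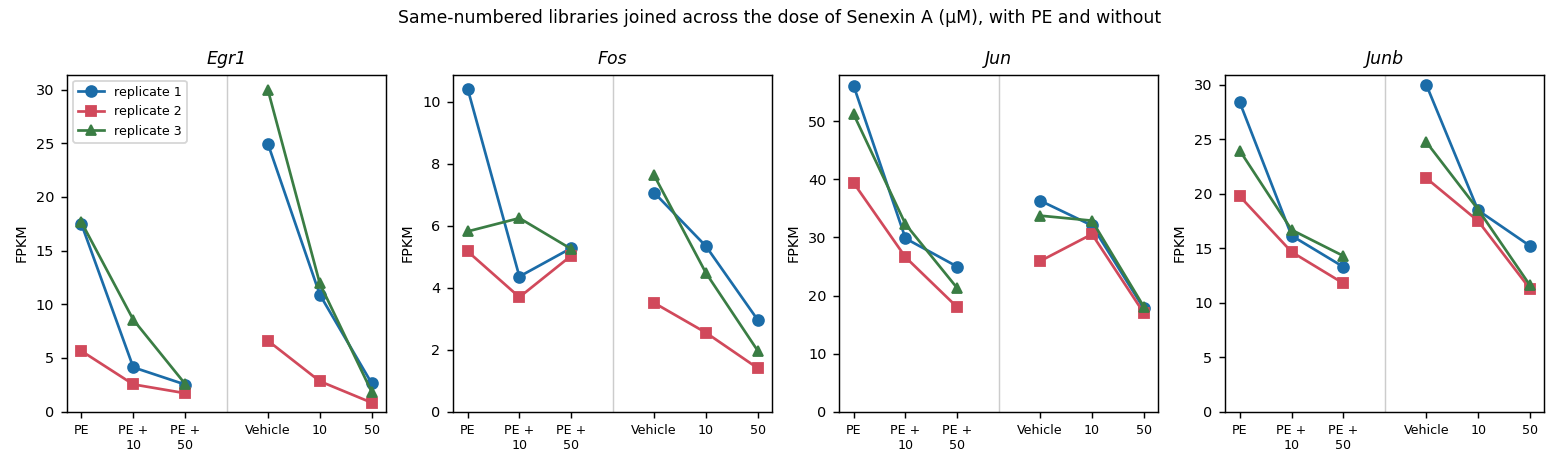
FPKM of Egr1, Fos, Jun and Junb with same-numbered libraries joined across the Senexin A dose, PE groups left of those without PE. Replicate 2 is the lowest line at every point, and its Egr1 level of 6.60 FPKM in Vehicle stands beside 24.9 and 29.9 FPKM in replicates 1 and 3.

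The rows most like each gene over the 18 libraries, by Pearson r of log2(FPKM + 1), are given as a description in which group and replicate differences both count. They were Tmem185a (0.936), Chpf (0.884) and Dusp16 (0.879) for Jund, Cpe (0.943), Dpy19l3 (0.94) and Snx18 (0.939) for Jun, and Emp3, F2r and Pid1 (0.951 each) for Junb. For Fosl2 they were Fibp (0.948), Mfsd11 (0.946) and Ezh1 (0.944), for Fos Areg (0.827) and Klf6 (0.819), and for Fosl1 Ddhd1 (0.8), Cenpa (0.754) and LOC691931 (0.726). For Atf3 they were Gabarapl1 (0.871), Hspa4 (0.81) and Vps4a (0.809), for Egr1 Loxl2 (0.945), Chst10 (0.94) and Dclk1 (0.938), and for Egr2 Nono (0.893), Dusp1 (0.879) and Mgp (0.878). Fosl1 was the gene with the weakest match. Among the 9 tested genes themselves, Egr1 and Junb were closest (0.92), followed by Jun and Junb (0.85).

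The genes that feed back on ERK signaling are phosphatases, Sprouty proteins and Etv factors. The shares of all rows called higher and lower stand beside the counts of each list. They were 17.9% and 12.7% in PE against Vehicle, 9.13% and 7.84% in PE+S10 against PE, and 29.3% and 27.4% in PE+S50 against PE. Without PE they were 9.17% and 7.01% in S10 against Vehicle, and 30.5% and 30.2% in S50 against Vehicle. No list was tested against these shares. Of 11 tested, 8 were higher and 0 lower in PE than in Vehicle (median 0.58): Dusp4, an ERK phosphatase, averaged 21.9 FPKM in PE and 4.11 FPKM in Vehicle (2.17 ± 0.21, adjusted p = 2.6e-06), and Etv5 11.1 and 4.47 FPKM (1.15 ± 0.11, adjusted p = 1.6e-06). For PE+S50 against PE, 0 were higher and 7 lower (median -0.62), among them Spry2 (-1.07 ± 0.14, adjusted p = 7.7e-06) and Dusp6 (-1.09 ± 0.23, adjusted p = 0.0007). In PE+S10 against PE, 1 was higher, Dusp5 (1.12 ± 0.27, adjusted p = 0.0093), and 1 lower, Etv5 (-0.35 ± 0.11, adjusted p = 0.033). In S50 against Vehicle, 1 was higher and 9 lower, and in S10 against Vehicle 1 was higher and 0 lower. PE raised 9 of 11 relative to S50 at the 50 µM dose (all rows, 9.31%).

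Of 23 other immediate early genes, 6 were higher and 1 lower in PE than in Vehicle (all rows, 17.9% and 12.7%), and the list's median was 0.03. For the other comparisons of this list, the shares of all rows were 30.5% and 30.2% in S50 against Vehicle and 29.3% and 27.4% in PE+S50 against PE. At 10 µM they were 9.13% and 7.84% in PE+S10 against PE, and 9.17% and 7.01% in S10 against Vehicle. Btg2, an antiproliferative gene, rose by 1.10 ± 0.094 (60.7 FPKM in PE and 27.7 FPKM in Vehicle, adjusted p = 6.7e-07). In S50 against Vehicle, 5 were higher and 15 lower (median -0.65), with Klf2 lower (-2.49 ± 0.29, adjusted p = 2.4e-06) and Gadd45a, a growth arrest gene, higher (3.33 ± 0.12, adjusted p = 2.5e-11). In PE+S50 against PE, 2 were higher and 10 lower, with Cyr61 lower (-1.84 ± 0.29, adjusted p = 5.8e-05) and Myc higher (1.63 ± 0.30, adjusted p = 0.00025). In PE+S10 against PE, 1 was higher and 6 lower, with Klf2 (-1.93 ± 0.29, adjusted p = 0.0005) and Trib1 (-0.96 ± 0.16, adjusted p = 0.00093) lower, and in S10 against Vehicle 2 were higher and 5 lower.

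Of 16 tested genes known as AP-1 targets, 2 were higher and 3 lower in PE than in Vehicle (median 0.15, all rows 17.9% and 12.7%). In PE+S10 against PE, 0 were higher and 6 lower (all rows, 9.13% and 7.84%). In PE+S50 against PE, 1 was higher and 9 lower (all rows, 29.3% and 27.4%). Hbegf, a growth factor of the EGF family, averaged 25.8 FPKM in PE+S10 and 60.9 FPKM in PE (-1.21 ± 0.12, adjusted p = 3e-05), and 14.4 FPKM in PE+S50 (-2.01 ± 0.12 against PE, adjusted p = 4.5e-09). Ccnd1, the cyclin of early G1, averaged 42.8 FPKM in PE and 20.6 FPKM in Vehicle (1.04 ± 0.20, adjusted p = 0.0012), and was lower at both doses with PE (-0.78 ± 0.20, adjusted p = 0.016, and -1.46 ± 0.20, adjusted p = 1.5e-05). The gene higher in PE+S50 was Hmox1, heme oxygenase (1.81 ± 0.28, adjusted p = 3.9e-05). In S50 against Vehicle, 1 was higher and 10 lower (all rows, 30.5% and 30.2%), with Tnc (-2.14 ± 0.20, adjusted p = 2e-07) among those lower. For S10 against Vehicle, 0 were higher and 2 lower (all rows, 9.17% and 7.01%).

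Of 18 other basic leucine zipper factors, 2 were higher and 2 lower in PE than in Vehicle, no more than the shares of all rows (17.9% and 12.7%). The pair that rose was Mafk, a small Maf protein with no activation domain (89.1 FPKM in PE and 44.2 FPKM in Vehicle, 1.00 ± 0.095, adjusted p = 1.9e-06), and Crem (0.67 ± 0.11, adjusted p = 0.00026). Both were lower in PE+S10 than in PE (-0.94 ± 0.095, adjusted p = 3e-05, and -0.57 ± 0.11, adjusted p = 0.0024), where 0 were higher and 3 lower (all rows, 9.13% and 7.84%). At 50 µM the direction of the list was mixed: 9 were higher and 3 lower in PE+S50 than in PE (all rows, 29.3% and 27.4%). In S50 against Vehicle, 7 were higher and 5 lower (all rows, 30.5% and 30.2%). The largest of these were Ddit3, Atf4 and Cebpb, which the stress response list also holds, and Atf6 (1.38 ± 0.10 in PE+S50 against PE, adjusted p = 3.3e-08). In S10 against Vehicle, 0 were higher and 3 lower (all rows, 9.17% and 7.01%), with Maff at -0.99 ± 0.14 (adjusted p = 0.00027).

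Srf, the serum response factor that binds CArG boxes, averaged 89.6 FPKM in PE and 68.0 FPKM in Vehicle (0.39 ± 0.068, adjusted p = 0.00052). Srf was also higher than in Vehicle in S10 (0.38 ± 0.068, adjusted p = 0.0017) and S50 (0.34 ± 0.068, adjusted p = 0.00044). It was lower in PE+S50 than in PE (-0.17 ± 0.068, adjusted p = 0.038), as Egr1 and Egr2 were. In S50 against Vehicle the directions were opposite, with Srf higher and Egr1 (-2.77 ± 0.56) and Egr2 (-0.86 ± 0.22) lower. The interaction for Srf at 50 µM was -0.51 ± 0.097 (adjusted p = 0.0049). The part of Srf in the Egr levels was not tested. Elk3, a ternary complex factor, was lower in S50 than in Vehicle (2.67 and 6.03 FPKM, -0.94 ± 0.12, adjusted p = 4.9e-06). Elk1, another gene of this list, was higher there (38.1 and 29.8 FPKM, 0.34 ± 0.08, adjusted p = 0.0017). Elk1 was also higher in PE+S50 than in PE (0.30 ± 0.08, adjusted p = 0.004). Over the 5 tested genes of this list, 2 were higher and 1 lower in each of PE, S10 and S50 against Vehicle. The shares of all rows there were 17.9% and 12.7%, 9.17% and 7.01%, and 30.5% and 30.2%. In PE+S10 against PE, 0 were higher and 1 lower (all rows, 9.13% and 7.84%), and in PE+S50 against PE, 1 and 3 (29.3% and 27.4%). Nab2, a corepressor that binds Egr1 and is itself an Egr target, was lower in PE+S10 than in PE (-0.69 ± 0.12, adjusted p = 0.0017), in PE+S50 than in PE (-0.86 ± 0.12, adjusted p = 2.5e-05), in S10 than in Vehicle (-0.47 ± 0.12, adjusted p = 0.018) and in S50 than in Vehicle (-1.05 ± 0.12, adjusted p = 2.7e-06). Of the 3 tested genes among the other Egr factors and the Nab corepressors, 0 were called in PE against Vehicle, 1 was higher and 1 lower in PE+S10 against PE, 1 and 2 in PE+S50 against PE, 0 and 2 in S10 against Vehicle, and 1 and 2 in S50 against Vehicle. Nab1, the relative of Nab2, was higher in PE+S50 than in PE (0.49 ± 0.091, adjusted p = 0.00026).

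Of 14 tested genes of the MAP kinase cascade, 4 were higher and 3 lower in PE than in Vehicle (all rows, 17.9% and 12.7%). The counts were 1 and 1 in PE+S10 against PE (9.13% and 7.84%) and 3 and 2 in PE+S50 against PE (29.3% and 27.4%). Without PE they were 1 and 3 in S10 against Vehicle (9.17% and 7.01%) and 3 and 5 in S50 against Vehicle (30.5% and 30.2%). Several of these counts lay near or under the share of all rows. Rps6ka3, an ERK-activated kinase known to phosphorylate Fos, was higher in PE than in Vehicle (0.31 ± 0.098, adjusted p = 0.025) and lower in PE+S10 (-0.55 ± 0.098, adjusted p = 0.0015) and PE+S50 (-0.82 ± 0.098, adjusted p = 3.4e-06) than in PE. Without PE it was lower than in Vehicle in S10 (-0.35 ± 0.098, adjusted p = 0.024) and S50 (-0.47 ± 0.098, adjusted p = 0.00058). Other genes of the list went the other way. In S50 against Vehicle, Map2k2 (0.59 ± 0.058, adjusted p = 3.8e-07) and Map2k1 (0.41 ± 0.071, adjusted p = 0.00013) were higher. Mapk9 was higher than in PE in PE+S10 (0.36 ± 0.07, adjusted p = 0.0027) and PE+S50 (0.36 ± 0.07, adjusted p = 0.00042). Map2k6, an activator of p38, was lower than in Vehicle (7.03 FPKM) in PE (1.30 FPKM, -1.82 ± 0.27, adjusted p = 0.00011) and in S50 (1.52 FPKM, -1.67 ± 0.27, adjusted p = 5e-05).

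**Figure D5:**
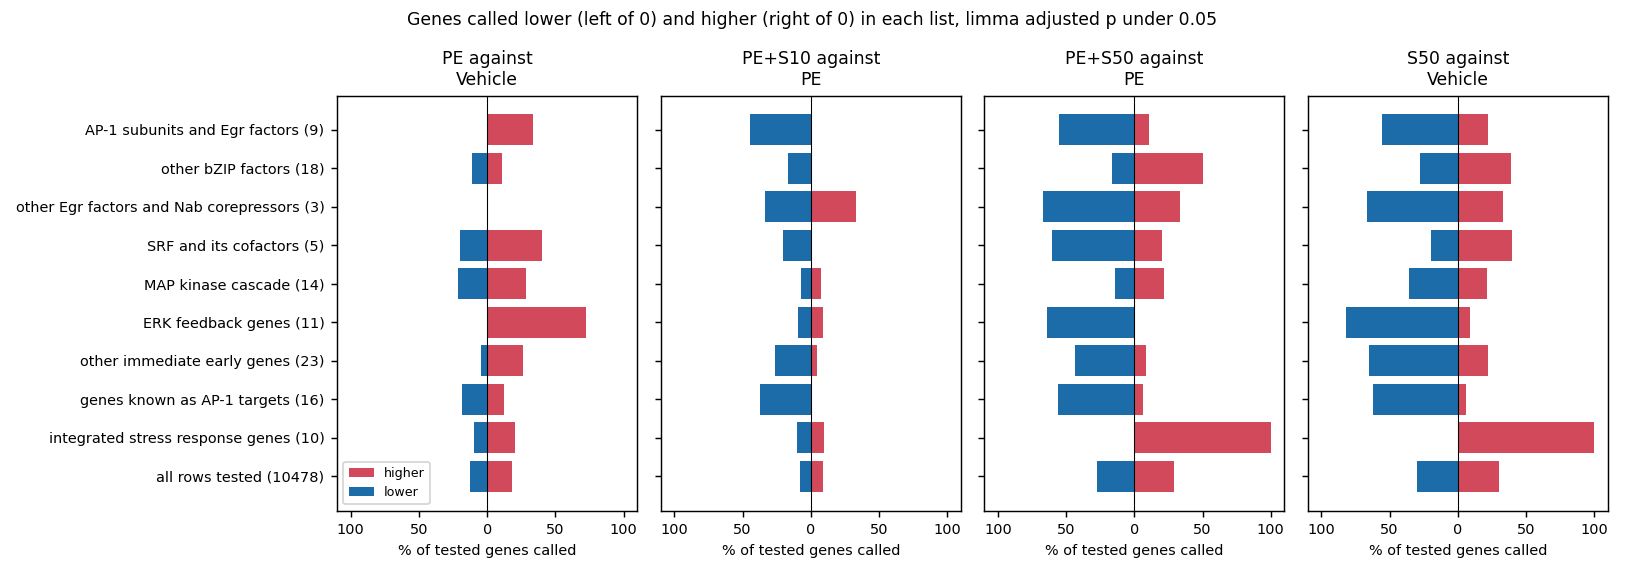
Share of tested genes called higher (right of 0) and lower (left of 0) in each list, by number of genes in brackets, for 4 comparisons, with all rows tested at the bottom. For PE+S50 against PE, 5 of the 9 AP-1 and Egr genes and 9 of the 16 AP-1 targets are lower while all 10 integrated stress response genes are higher, beside 27.4% of all rows lower and 29.3% higher.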

How the data were processed

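PolyA RNA from 18 samples of neonatal rat ventricular myocytes was sequenced. Per the submitters' processing notes, Bowtie2, Cufflinks and genome build rn5 were used; versions, annotation and strand are not given in the sources used here. FPKM per gene were deposited as the authors computed them, with a lowest value of 0.01 in 27.4% of entries. FPKM are not counts and the read depth is unknown. FPKM sums were 610324 to 910958 per library, and steps among low values placed relative depth at 0.833 to 1.109 times that of Vehicle replicate 2.

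Rows that reached 1 FPKM in 3 or more libraries were tested on log2(FPKM + 1) with limma 3.58.1 in R 4.3.3 (trend, 6 group means, 12 residual degrees of freedom), Benjamini-Hochberg adjusted over all 10478 rows per comparison, called under 0.05. The test was also run on simulated data with independent errors for each library. That setting lacks the shared deviations of same-numbered libraries given below, so it cannot show how the fit treats them. Groups came from the labels. Same-numbered libraries deviated together in all 45 pairs (r 0.213 to 0.587), so the replicate number pairs them, as seen in the data and not stated in the labels; the block is an alternative. All 10 genes were named, plus up to 4 called genes per list and comparison with the largest difference and at least 5 FPKM in a group. Some genes that this rule or the likeness ranking would name are not reported here. The genes and lists were chosen with earlier results of these data known. Alternatives covered the filter, pseudocount, scaling, block, compared groups only and left-out libraries.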

Additional observations from a re-analysis of the deposited data

Results flagged for a closer look

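The effect of 50 µM Senexin A on Jund differed between cells with PE and cells without it: the interaction was -0.90 ± 0.16 on the log2(FPKM + 1) scale (limma, adjusted p = 0.0039). With PE, Jund was lower in all 3 same-numbered pairs (differences from -1.01 to -0.95), and without PE the pairs gave -0.20, -0.29 and 0.23. Groups of 3 libraries were not searched for outlying samples.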

How the results depend on the processing

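Of 38 calls among the 9 tested genes, 27 held under every alternative run, and of 61 comparisons that were not called, 48 stayed so; no called difference changed sign. The number of genes called in PE+S10 against S10 was 1, and became 2 with a filter of 5 FPKM, with median-ratio scaling and with the replicate block, and 0 with no filter and with quantile normalization; leaving out libraries gave 0 to 3, the 3 being without replicate 2 of every group, an omission chosen after seeing the data. In PE+S50 against S50 it was 2, and 1 with the compared groups only, with a filter of 5 FPKM and with no filter. Leaving out libraries gave 0 to 2, and the replicate block added Jun. In S10 against Vehicle the number was 2, 1 with no filter and 3 with the replicate block, which added Egr1. Leaving out libraries gave 1 to 3 there. In PE+S50 against PE+S10 the number was 4, and 2 to 5 when libraries were left out. The replicate block added Junb and Egr1 to that comparison. The replicate block gave 1 call, against 0 without it, for the interaction at 10 µM and 2, against 1, for that at 50 µM. The cause was not tested.

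Over all rows the paired fit with the replicate block called 2761 rows against 1696 in S10 against Vehicle, 2924 against 1778 in PE+S10 against PE, 2491 against 1500 in PE+S50 against S50 (720 with the compared groups only), 230 against 32 for the interaction at 10 µM (17 with no filter) and 1690 against 734 for that at 50 µM. Apart from the calls given beside each gene, it changed no other call of these 9 genes. Leaving out 1 library gave 948 to 1457 in S10 against Vehicle (under 1.5 times fewer except S10 replicate 2 and Vehicle replicate 3), 1042 to 1575 in PE+S10 against PE (except PE+S10 replicate 1 and PE replicates 2 and 3), 945 to 1315 in PE+S50 against S50 (except PE+S50 replicate 1), 13 to 34 for the interaction at 10 µM and 392 to 921 for that at 50 µM. Leaving out replicate 2 of every group gave 1897 against 3205 in PE against Vehicle, 592 against 1696 in S10 against Vehicle, 572 against 1778 in PE+S10 against PE, 1858 against 3408 in PE+S10 against S10, 748 against 1500 in PE+S50 against S50, 2823 against 4320 in PE+S50 against PE+S10 and 158 against 734 for the interaction at 50 µM. For the interaction at 10 µM it gave 0 against 32 by limma, with 639 rows at an unadjusted p under 0.05. Scaling moved the median of all rows by at most 0.049 on the log2 scale. With 3 libraries a group and no read counts, Fosb and Egr2, near or under 1 FPKM, are the least precise.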
